A study of Mus musculus with 4 samples.

Results

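The 9 genes described here are forkhead transcription factor genes of the pharyngeal region: Foxa2, Foxc1, Foxc2, Foxd1, Foxf1, Foxf2, Foxl1, Foxl2 and Foxp1. They were taken by Ensembl ID from the 27514 genes that the 4 libraries share, in which 35 further forkhead genes are listed. The genes were chosen by name with results of these data known, and Foxl2 was selected on its summed UMIs over all cells, which stood far higher in cKO than in Ctrl at E9.5. That difference is therefore described here and not tested. The place of Foxl2 in any count of members past 2-fold at E9.5 is not independent of that choice.

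Forkhead proteins bind DNA through a winged-helix domain, and several of them open closed chromatin for other factors. In the embryo Foxa genes mark gut endoderm, Foxc genes act in paraxial and head mesoderm and in the outflow tract, and Foxf and Foxl1 genes act in splanchnic and gut mesenchyme, where they answer to Hedgehog ligands secreted by the endoderm. Foxd1 is known from kidney stroma and head mesenchyme, Foxl2 from the ovary, the eyelid and the pituitary, and Foxp1 from the heart, lung and immune system.

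Cells of the Tbx1Cre lineage were compared between genotypes at E8.5 and E9.5, with 1 library for each of the 4 groups. Ctrl embryos were Tbx1Cre/+;Rosa26-GFPflox/+ and cKO embryos were Tbx1Cre/flox;Rosa26-GFPflox/+, all of the Swiss Webster strain. The Cre was knocked into Tbx1, so Ctrl cells held 1 working Tbx1 allele, and all libraries carried the GFP reporter. Embryos were pooled. Upper bodies were dissected at E8.5, and the pharyngeal apparatus with the heart at E9.5, and living GFP-positive cells were sorted before droplet capture. Genotype therefore cannot be told apart from library, nor stage from dissection and library. The question was which of these genes differ with Tbx1 dosage, with stage and between cell groups.

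Levels are given as UMIs per 1000000 UMIs of the shared genes (UPM), with exact 95% Poisson intervals in brackets. Ratios are log2 values with exact conditional intervals, and shares of cells have exact Clopper-Pearson intervals. All of these cover counting error only, and no p-value can be given. A gene was counted as past 2-fold in a comparison when it had at least 20 UMIs over the 2 libraries and differed at least 2-fold. Cells of 10000 or more UMIs were thinned to 10000 and put into groups by marker genes, none of them a forkhead gene. Each group is named here by its gate: branchiomeric muscle progenitors (BrM), anterior and posterior second heart field (aSHF, pSHF), multilineage progenitors (MLP), cardiomyocytes (CM), mesenchyme, a group with Tcf15 and Meox1, endothelium and 3 epithelial groups. The number of markers each gate asks for was set after the data were seen.

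Sequences are shown for Foxl2, the gene that set the E9.5 libraries farthest apart, for Foxf2 and Foxc1, which lie near each other, and for Foxd1, which was past 2-fold higher in several gated groups of cKO E9.5. The 300 bases from 250 before to 50 after the gene start were read from RefSeq GRCm38.p6, the build of the deposited files, for 6 of the 9 genes. Foxc2, Foxf1 and Foxl1 had no entry. Foxl2 lies on chr9:98955607-98958126, Foxf2 on chr13:31625816-31631406, Foxc1 on chr13:31806646-31810635 and Foxd1 on chr13:98354245-98356705, all on the plus strand. Their windows, chr9:98955357-98955656, chr13:31625566-31625865, chr13:31806396-31806695 and chr13:98353995-98354294 in the same order, read as follows, with CCAAT boxes on either strand in capitals.
Foxl2: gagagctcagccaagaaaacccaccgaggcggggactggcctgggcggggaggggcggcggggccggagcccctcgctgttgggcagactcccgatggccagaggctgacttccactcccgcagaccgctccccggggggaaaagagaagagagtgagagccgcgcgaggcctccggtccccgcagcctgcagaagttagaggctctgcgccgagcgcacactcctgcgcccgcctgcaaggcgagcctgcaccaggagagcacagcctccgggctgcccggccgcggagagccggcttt
Foxf2: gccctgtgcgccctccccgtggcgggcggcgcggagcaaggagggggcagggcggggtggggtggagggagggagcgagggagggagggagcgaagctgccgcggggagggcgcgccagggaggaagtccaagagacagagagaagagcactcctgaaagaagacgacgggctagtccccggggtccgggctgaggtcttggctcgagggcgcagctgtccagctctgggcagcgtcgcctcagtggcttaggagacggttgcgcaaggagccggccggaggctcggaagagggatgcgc
Foxc1: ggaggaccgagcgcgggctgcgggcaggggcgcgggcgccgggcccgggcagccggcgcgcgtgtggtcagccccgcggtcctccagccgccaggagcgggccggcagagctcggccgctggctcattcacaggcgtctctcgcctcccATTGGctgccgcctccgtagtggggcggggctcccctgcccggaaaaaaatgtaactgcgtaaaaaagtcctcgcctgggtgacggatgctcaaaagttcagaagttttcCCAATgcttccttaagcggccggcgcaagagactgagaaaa
Foxd1: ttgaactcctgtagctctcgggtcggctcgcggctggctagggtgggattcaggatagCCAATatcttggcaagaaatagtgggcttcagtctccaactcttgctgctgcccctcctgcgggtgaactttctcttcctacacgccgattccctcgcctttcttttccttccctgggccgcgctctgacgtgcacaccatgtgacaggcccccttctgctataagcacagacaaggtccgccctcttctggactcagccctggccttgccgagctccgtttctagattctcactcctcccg

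Foxl2 and Foxf2 had windows of 71.3% GC with 27 CpG each, against a median of 52.7% GC and 7 CpG over 32851 mouse promoter windows. Foxc1 held CCAAT 2 times and Foxd1 held it once, a pentamer found in 37.4% of all windows. TATAAA, found in 13.6% of windows, was absent from the 4 printed here. Searched on both strands, the forkhead heptamer TGTTTAC (3.65% of all windows), the T-box core GGTGTGA (3.98%) and the GLI octamer GACCACCC (0.807%) occurred in no window of the 6 genes. Such matches describe the letters of these windows alone.

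Facts of the whole series set how far the values can be read. The libraries held 1434 (Ctrl E8.5), 1090 (cKO E8.5), 5453 (Ctrl E9.5) and 6266 (cKO E9.5) cells with a median of 15910.5 to 23984 UMIs, and pairs of libraries shared 2 to 55 barcodes. The cKO E9.5 library was counted against another gene table, of 31053 rather than 27998 genes. It also stood apart at E9.5: 59 genes were at least 16-fold higher and 47 at least 16-fold lower in it than in Ctrl, against 3 and 1 at E8.5. Tbx1 was at 86.4, 118, 103 and 134 UPM in the order above, so its 3′ counts were not lower in cKO. The median log2 ratio of all genes between cKO and Ctrl was -0.26 at E9.5 and 0.04 at E8.5, and TMM scaling would add 0.26 at E9.5. Between stages in Ctrl the median was 0.39 and TMM scaling would add -0.32.

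Over all cells, the paraxial and head mesoderm genes and Foxp1 were well detected in every library, while Foxa2 and Foxl2 were near the floor in most of them. Foxc1, known for eye and skull development, was at 27.1, 40.2, 30.6 and 37.5 UPM in Ctrl E8.5, cKO E8.5, Ctrl E9.5 and cKO E9.5. Foxc2, which acts with Foxc1 in vessels and somites, was at 58.7, 79.2, 59.3 and 49.97 UPM in the same order. Foxc1 was thus higher in cKO at both stages, while Foxc2 was higher in cKO at E8.5 and lower at E9.5. Foxd1, a stromal and head mesenchyme gene, was at 29.2, 47.9, 59.0 and 71.3 UPM, so that each E9.5 library lay above each E8.5 library. Foxp1, a repressor of the Foxp branch, was at 63.7, 71.6, 106 and 78.9 UPM, highest in Ctrl at E9.5.

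Among the splanchnic genes the order of the libraries differed from gene to gene. Foxf1, needed in lateral and splanchnic mesoderm, was at 5.90, 10.6, 10.5 and 6.96 UPM in the same order of libraries. Foxf2, its close relative in gut and palate mesenchyme, was at 2.65, 3.46, 12.6 and 10.2 UPM. Both E9.5 libraries thus lay far above both E8.5 libraries for Foxf2, and for Foxf1 the order of the genotypes turned between stages. Foxl1, a gene of the subepithelial gut mesenchyme, was at 4.52, 5.63, 6.96 and 5.44 UPM.

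Foxa2, a pioneer factor of the endoderm, had 5 UMIs in Ctrl E8.5, none in the cKO library of that stage, 121 (1.28 UPM [1.07, 1.53]) in Ctrl E9.5 and 41 (0.392 UPM [0.281, 0.532]) in cKO E9.5. Foxl2, an ovarian and eyelid factor, had 2 UMIs in Ctrl E8.5, none in its cKO counterpart, 6 (0.0636 UPM [0.0234, 0.139]) in Ctrl E9.5 and 834 (7.97 UPM [7.44, 8.53]) in cKO E9.5. Foxl2 passed the minimum of 20 UMIs at E9.5 only through the cKO library.

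**Figure D1:**
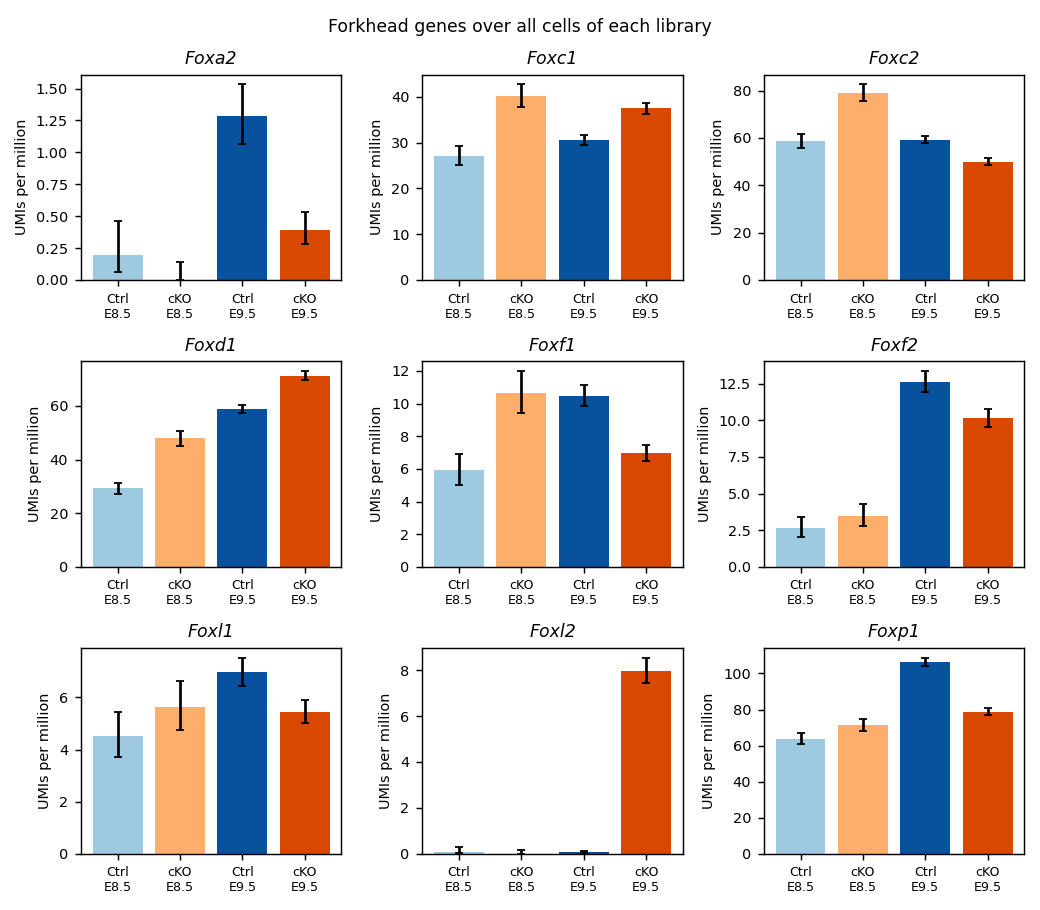
Level of each gene over all cells of the 4 libraries, in UPM on a linear axis that starts at 0, with 95% Poisson intervals as bars. Foxl2 stands at 7.97 UPM in cKO E9.5 and at or below 0.0793 UPM in the other libraries, and Foxf2 is above 10 UPM only in the E9.5 libraries.

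At E9.5 in Ctrl the genes fell into different cell groups. Foxf1 was highest in the pSHF gate, with 247 UPM [213, 285] in its 36 cells, and ranked the highest of 4643 genes there by fold over all other gated cells (14.0-fold with 10 UPM added). It followed at 58.2 UPM [51.1, 66.2] in cells passing several mesoderm gates, 50.4 [40.3, 62.3] in MLP, 41.0 [33.9, 49.2] in CM and 24.5 [16.8, 34.4] in aSHF, and these neighbours overlap in their intervals. Among 6928 genes in the MLP gate it ranked the fifth by the same measure. At the other end BrM held 4 Foxf1 UMIs (0.615 UPM) over 304 cells, and mesenchyme was at 4.24 UPM.

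Foxp1, Foxl1 and Foxf2 also had their highest Ctrl E9.5 level in the pSHF gate. Foxp1 was at 287 UPM [250, 328] there and at 145 [127, 164] in MLP, and between 48.5 in endothelium and 121 in the other groups compared. Foxl1 was at 30.4 UPM [19.3, 45.6] in pSHF, above 14.5 in the Tcf15/Meox1 gate and 13.5 in MLP. Its level was 8.16 in mesenchyme and 0.769 in BrM, and endoderm-gated cells held none of its UMIs. Foxf2 ran from 27.8 UPM [17.2, 42.4] in pSHF and 19.9 in MLP, with overlapping intervals, through 16.7 in mesenchyme, 9.68 in BrM and 5.30 in CM to 0.774 in endothelium and 0.866 in endoderm-gated cells.

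Foxd1 and Foxc2 were highest in the Tcf15/Meox1 gate and in mesenchyme. Foxd1 was at 122 UPM [110, 135] and 103 [99.5, 107] in these, and at 4.92 in BrM and 5.54 in endothelium. It ranked the ninth of 11888 genes by fold in the mesenchyme gate. Foxc2 was at 146 UPM [133, 160] in the Tcf15/Meox1 gate, where it ranked the fifth of 8267 genes, and at 87.2 [83.9, 90.6] in mesenchyme. Outside the mesoderm it reached 33.1 UPM in endothelium but 5.55 in endoderm-gated cells. The Tcf15/Meox1 gate rested on 2 of its 6 markers, which is why it is named by them.

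Foxc1 was the flattest of the mesodermal genes, from 43.0 UPM [40.7, 45.4] in mesenchyme through 36.3 in the Tcf15/Meox1 gate to 18.7 in endothelium and 12.5 [9.89, 15.5] in BrM. Foxa2 was an epithelial gene in these data, with 57.0% of its gated Ctrl E9.5 UMIs in endoderm-gated cells, which held 6.41% of all UMIs. It was at 9.18 UPM [6.88, 12.0] there and at 4.86 in other epithelial cells, and no UMI was found in BrM, pSHF, MLP or CM.

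**Figure D2:**
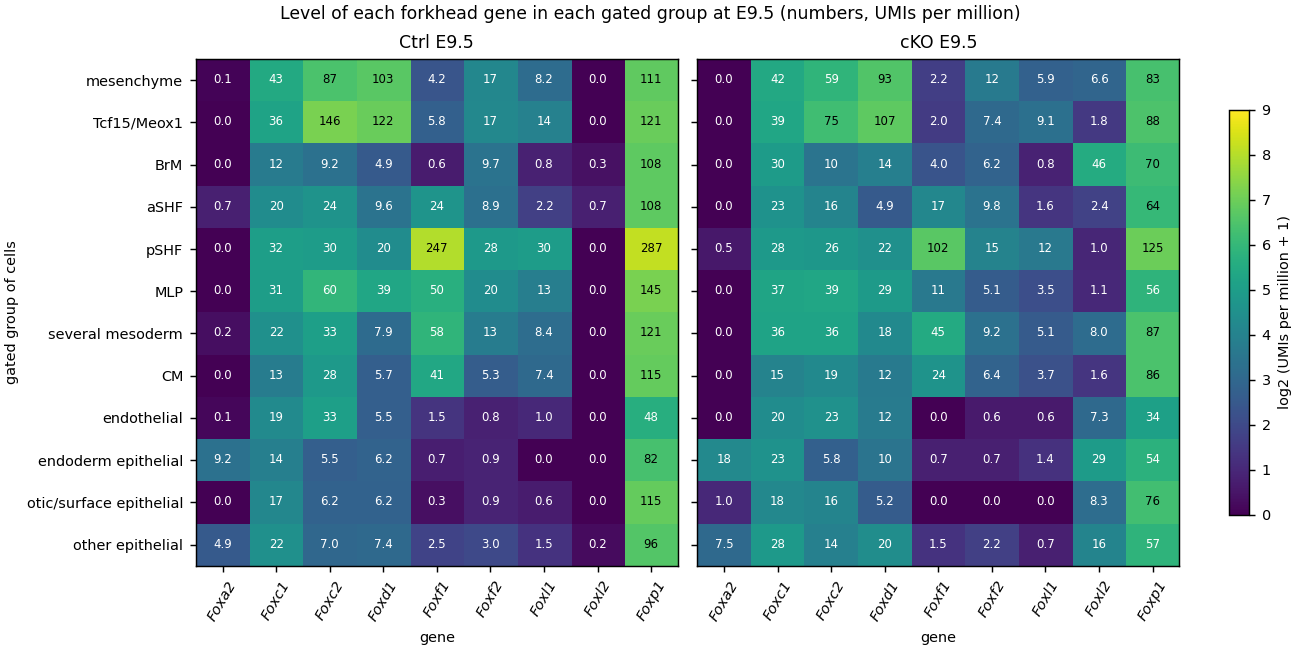
Level of each gene in 12 gated groups of the Ctrl and cKO libraries at E9.5; colour is log2 (UPM + 1) and the printed number is UPM. Foxf1 and Foxp1 peak in the pSHF gate of Ctrl at 247 and 287 UPM, and Foxl2 has values above 10 UPM in the cKO panel alone, led by BrM at 46.0 UPM.

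Members that shared cells could be counted in 3608 thinned Ctrl E9.5 cells that passed mesoderm gates, the mesenchyme gate or no gate. Cells of no gate made up 940 of them. Foxl1 was found in 33.0% of Foxf1-positive and 4.90% of Foxf1-negative cells, and Foxf2 in 38.5% and 11.7% of them. Foxc2 was found in 77.0% of Foxl1-positive against 39.5% of Foxl1-negative cells, and in 63.7% of Foxd1-positive against 26.6% of Foxd1-negative cells. Foxd1 and Foxf1 were found together hardly more often than apart: Foxf1 was in 6.87% of Foxd1-positive and 5.60% of Foxd1-negative cells. The same order held among 5056 cKO E9.5 cells (1093 of no gate), where Foxl1 was in 18.6% of Foxf1-positive and 4.44% of Foxf1-negative cells. These cells all come from 1 library each, and sparse counts understate how often genes meet.

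Some of these genes are close neighbours in the genome. Foxf1 (chr8:121084386-121088154), Foxc2 (chr8:121116171-121118895) and Foxl1 (chr8:121127685-121130644) lie in a row, with 28017 bp between Foxf1 and Foxc2 and 8790 bp between Foxc2 and Foxl1. Foxf2 and Foxc1 lie 175240 bp apart on chromosome 13. Across 45 group-by-library units the log2 levels of Foxf1 and Foxl1 correlated at r = 0.60, Foxc2 and Foxl1 at 0.56, Foxf1 and Foxc2 at 0.02, and Foxf2 and Foxc1 at 0.24. The highest values among the 36 pairs were 0.75 for Foxf2 with Foxl1 and 0.72 for Foxf2 with Foxp1, which sit on different chromosomes. These units share libraries and depth, so the coefficients are descriptive. Mthfsd, the gene between Foxf1 and Foxc2, had a log2 ratio of -0.10 between genotypes at E9.5, with 2703 and 2792 UMIs in Ctrl and cKO.

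By the profile over the same units, the 3 genes most like each member were picked out of 12116 candidates. Foxf1 was nearest to Osr1 (r = 0.87), Tbx5 (0.87) and Myrf (0.86), of which the former pair are pSHF gate markers. Foxa2 was nearest to Gm12446 (0.97), Nxnl2 (0.96) and its paralogue Foxa1 (0.96). Foxd1 was nearest to Nbl1 (0.93), S1pr3 (0.92) and Foxd2 (0.89). Foxl1 was nearest to Sparcl1 (0.85), the Hedgehog effector gene Gli1 (0.84) and Foxp2 (0.81), and Foxf2 to Pcolce (0.86), Twist2 (0.83) and Pck2 (0.82). For the others the best values were 0.77 for Foxc1 with Twist1, 0.83 for Foxc2 with Rab3il1, 0.82 for Foxl2 with Dnmbp and 0.82 for Foxp1 with Mccc1. Dnmbp was itself at least 16-fold higher in cKO E9.5 than in Ctrl (511 and 20 UMIs). Its match is therefore not independent of the difference on which Foxl2 was selected. Over 14 groups of cKO E9.5 Dnmbp ran from 3.71 to 11.5 UPM, and Foxl2 from 0.967 to 46.0.

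From E8.5 to E9.5 in Ctrl, 3 of the 8 genes that passed the minimum were past 2-fold, all higher at E9.5, where 17.9% of 14441 genes were as well. Foxf2 was the clearest, at 2.65 UPM [2.06, 3.37] at E8.5 and 12.6 [11.9, 13.4] at E9.5, a log2 ratio of 2.25 [1.89, 2.63]. Foxa2 was higher by 2.70 [1.43, 4.34] on 5 and 121 UMIs, and E8.5 gave just 2 endoderm-gated cells in Ctrl against 296 at E9.5. Foxd1 was at the line with 1.01 [0.90, 1.12], 0.62 above the median gene, and is no longer past 2-fold under TMM scaling. Foxc2 (0.01) and Foxc1 (0.18) were below the median gene.

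Within groups the increase in Foxf2 was seen wherever it could be compared. Its log2 ratio was 2.21 [0.29, 5.28] in BrM, 2.29 in mesenchyme, 2.53 in MLP, 2.76 in cells of several mesoderm gates and 3.17 [2.03, 4.55] in the Tcf15/Meox1 gate. In these groups 2 of 7 members (mesenchyme, 14.1% of all genes), 3 of 7 (MLP, 12%), 2 of 7 (several gates, 11.8%) and 4 of 7 (Tcf15/Meox1, 12.1%) were past 2-fold higher at E9.5, and none was lower. Foxf1 was higher at E9.5 by 2.11 [1.35, 2.95] in MLP and, on 4 and 33 UMIs, by 2.19 [0.69, 4.14] in aSHF, where Foxp1 was higher by 1.75 [1.12, 2.43] and 15.3% of genes were past 2-fold. Foxp1 was also higher by 1.31 in MLP and by 1.39 [0.65, 2.24] in endothelium (17.4% of genes past 2-fold), the 1 member past the line there. In CM that 1 was Foxl1, at 1.62 [-0.41, 4.76] on 2 and 21 UMIs (16.9% of genes).

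BrM-gated cells went the other way for 3 genes. Of 5 members compared there, 3 were past 2-fold lower and 1 higher at E9.5, in a group where 3.67% of genes were lower and 15.6% higher. Foxd1 was at 26.2 UPM [17.0, 38.7] at E8.5 and 4.92 [3.36, 6.94] at E9.5, a log2 ratio of -2.42 [-3.22, -1.60]. Foxc1 was at 37.8 UPM [26.5, 52.3] and 12.5 [9.89, 15.5], or -1.60 [-2.18, -0.99], and Foxc2 at 23.1 and 9.22 UPM, or -1.32 [-2.05, -0.55]. The E8.5 values rest on 48 cells and 22 to 36 UMIs per gene, and 1 cell held 9 of the 25 Foxd1 UMIs, without which the E8.5 Foxd1 level was 17.2 UPM. The gate was met in part by different markers at the 2 stages, with Lhx2 in 41.7% and 73.0% of the cells, and their part in the difference was not tested.

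**Figure D3:**
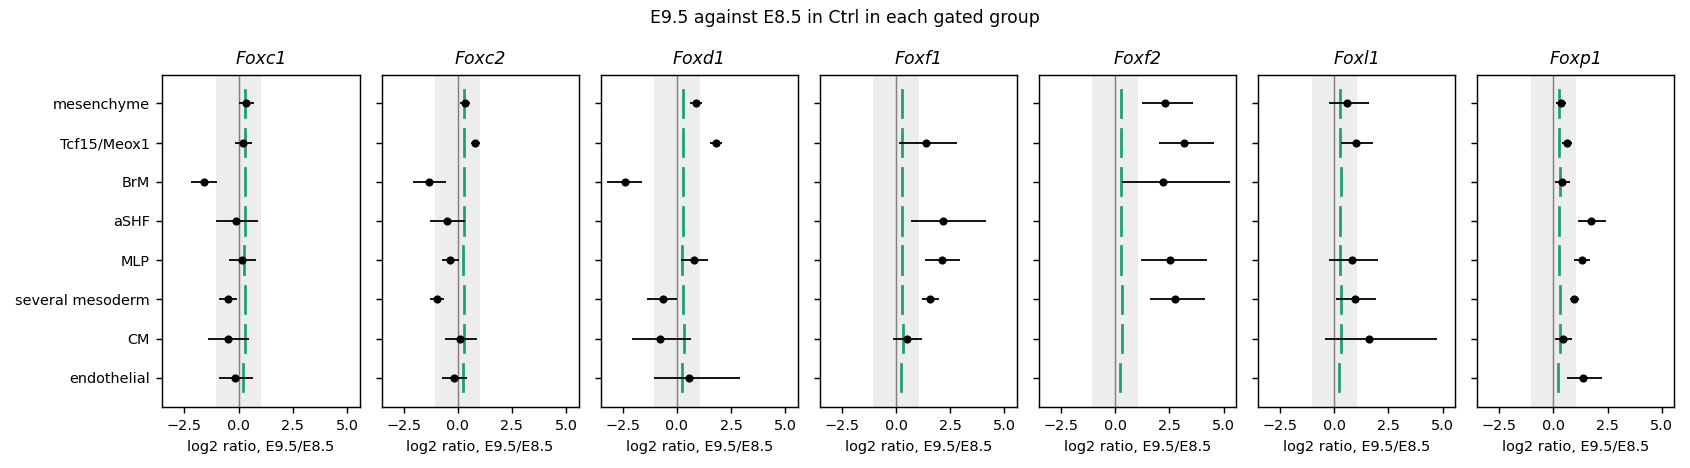
Log2 ratio of E9.5 over E8.5 in Ctrl for 7 genes in each gated group with at least 20 cells per library (points, with 95% counting intervals); the grey band spans 2-fold, the green ticks are the median of all genes. Foxf2 lies to the right of the band in each group shown, and in BrM Foxc1, Foxc2 and Foxd1 lie to its left at -1.60, -1.32 and -2.42; the mesenchyme bound of Foxf1 is not drawn.

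Between genotypes at E8.5, all 7 genes that passed the minimum were higher in cKO, and by more than the median gene, but 0 were past 2-fold, against 4.22% of 12762 genes. No test across replicates exists for this count. The makeup of the libraries also differed. The mesenchyme gate held 8.70% of gated cells in Ctrl and 14.1% in cKO, and the Tcf15/Meox1 gate 14.1% and 18.2%. Foxf1 had the highest ratio, 0.85 [0.56, 1.15], on 149 and 274 UMIs, followed by Foxd1 at 0.71 [0.58, 0.84], Foxc1 at 0.57 [0.43, 0.71] and Foxc2 at 0.43 [0.33, 0.53]. The intervals of Foxf2 (0.38) and Foxl1 (0.32) held 0, and Foxp1 was at 0.17 [0.07, 0.27].

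Within groups at E8.5, Foxf1 was past 2-fold higher in 2 heart-related gates. It was at 5.38 UPM (4 UMIs) in Ctrl and 25.4 UPM (25 UMIs) in cKO in aSHF, a ratio of 2.24 [0.71, 4.22], where 6.32% of genes were past 2-fold. Of the 25 UMIs 1 cell held 12, the level without it was 13.6 UPM, and the thinned share of cells with a UMI was 10.3% in Ctrl and 10.0% in cKO, with 4 cells in each. In CM it was at 29.0 and 64.7 UPM, a ratio of 1.16 [0.44, 1.91], with 6.82% of genes past 2-fold. The aSHF gate held 39 Ctrl and 40 cKO cells and the CM gate 46 and 35. In MLP the Foxf1 ratio of -1.04 [-2.39, 0.21] had an interval that held 0, with 5.77% of genes past 2-fold, and 1 Ctrl cell held 7 of the 17 UMIs. Foxc2 was at 37.1 and 76.9 UPM in endothelium, a ratio of 1.05 [0.38, 1.75], where 6.81% of genes were past 2-fold. In mesenchyme, the Tcf15/Meox1 gate and BrM no member was past 2-fold, against 5.08%, 4.47% and 5.72% of genes, and in cells of several gates Foxf2 was, at 1.12 [-0.31, 2.69] on 7 and 13 UMIs (4.56%).

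At E9.5, 2 of the 9 genes were past 2-fold over all cells, against 13.4% of 15130 genes: Foxl2 higher and Foxa2 lower in cKO. Foxl2 was selected on this same difference, so its call was fixed in advance. Foxa2 had a log2 ratio of -1.71 [-2.26, -1.19], but the cells that hold it were fewer: endoderm-gated cells were 6.04% of gated cells in Ctrl and 1.17% in cKO. Weighting the cKO groups as in Ctrl turned its ratio to 0.64. Within endoderm-gated cells it was at 9.18 UPM (53 UMIs, 296 cells) in Ctrl and 17.99 (25 UMIs, 65 cells) in cKO, yet 1 cKO cell held 15 of the 25 UMIs, and the level without it was 7.37 UPM. The thinned shares of cells with a UMI were 7.77% [4.99, 11.4] in Ctrl and 7.69% [2.54, 17.0] in cKO.

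The other 7 genes differed by less than 2-fold over all cells. Foxc1 was 0.29 [0.22, 0.36] and Foxd1 0.27 [0.22, 0.33] higher in cKO, which is 0.55 and 0.53 above the median gene. Foxc2 (-0.25), Foxf2 (-0.31) and Foxl1 (-0.36) lay within 0.1 of the median gene, and under TMM scaling the Foxc2 ratio was 0.01. Foxf1 had a ratio of -0.59 [-0.73, -0.45] and Foxp1 of -0.43 [-0.48, -0.39]. The mesenchyme gate held 33.8% of the gated UMIs in Ctrl and 47.9% in cKO, which moves with the levels of Foxc1 and Foxd1, and within that gate Foxc1 had a ratio of -0.04 [-0.15, 0.06] and Foxd1 of -0.15 [-0.21, -0.08].

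**Figure D4:**
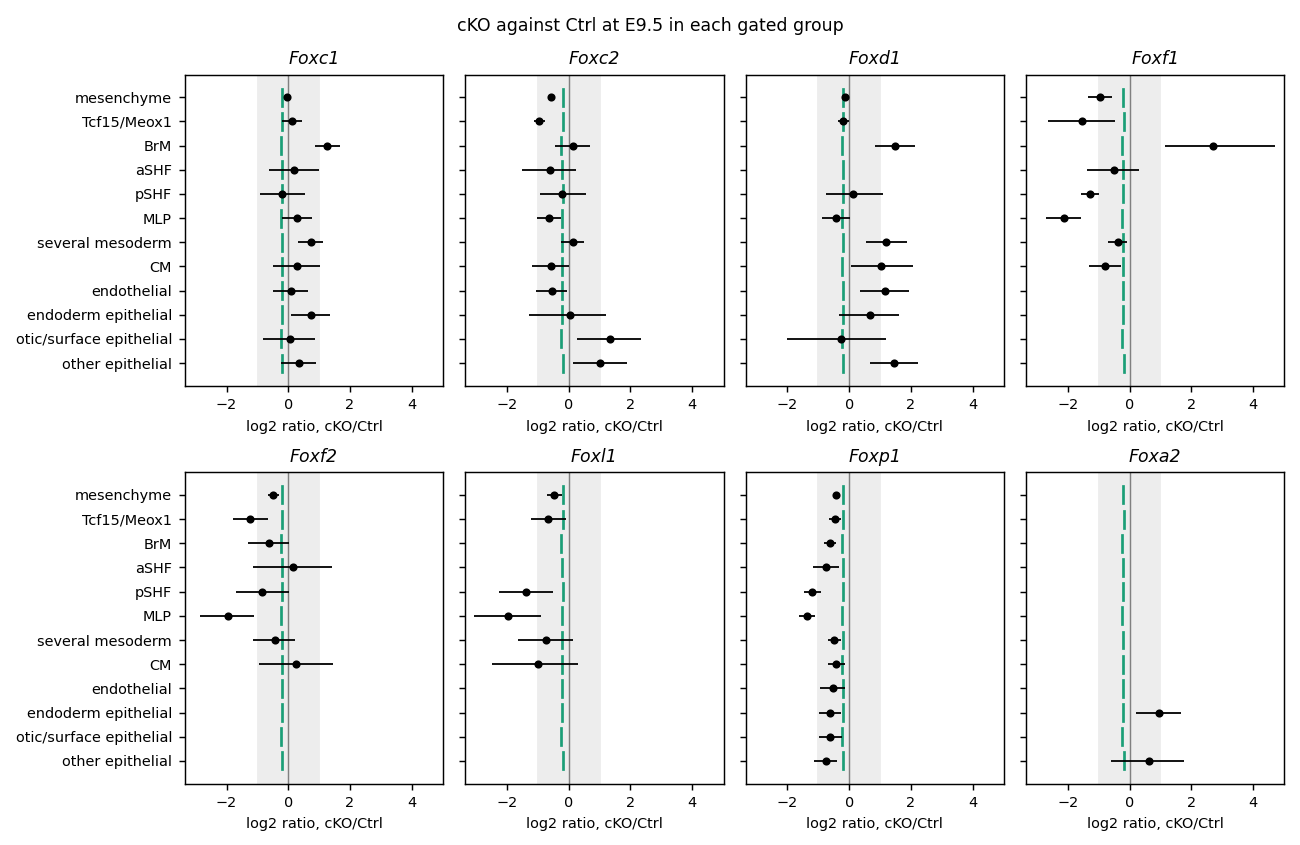
Log2 ratio of cKO over Ctrl at E9.5 for 8 genes in 12 gated groups (points, with 95% counting intervals); the grey band spans 2-fold, the green ticks are the median of all genes in that group. Foxp1 lies to the left of 0 in every group shown (in the stricter gates, not in aSHF or cells of several gates), Foxf1 lies to the right of 0 in BrM alone (in the stricter gates also in CM and cells of several gates), and Foxd1 lies to the right of the band in BrM, cells of several gates, CM, endothelium and other epithelial cells.

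In the MLP gate 4 of 7 genes were past 2-fold lower in cKO, where 6.87% of genes were. Foxf1 was at 50.4 UPM [40.3, 62.3] in 96 Ctrl cells and 11.5 UPM in 215 cKO cells, a ratio of -2.13 [-2.70, -1.59]. Foxf2 was at 19.9 and 5.08 UPM, a ratio of -1.97 [-2.87, -1.12], Foxl1 at 13.5 and 3.47 UPM, a ratio of -1.96 [-3.06, -0.92], and Foxp1 at 145 and 56.1 UPM, a ratio of -1.37 [-1.64, -1.10]. Foxc1 did not share this direction, at 0.27 [-0.20, 0.75]. The share of cells with a Foxf1 UMI was 18.8% and 8.37%, against 1.36% in Ctrl endothelium, and 1 cKO cell held 11 of the 43 Foxf1 UMIs.

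The makeup of the MLP gate differed with genotype: Aplnr was in 51.0% of its Ctrl cells and 15.3% of its cKO cells, and the part of this makeup in the ratios was not tested. With 1 more marker asked for, 81 Ctrl and 59 cKO cells remained, and the ratios were -1.002 [-1.93, -0.15] for Foxf1, -1.40 [-1.90, -0.92] for Foxp1, -0.35 for Foxf2 and -0.13 for Foxl1, the last 2 on 11 and 10 UMIs. The calls of Foxf2 and Foxl1 are thus lost in the stricter gate.

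In the pSHF gate 3 of 7 genes were past 2-fold lower in cKO, where 6.97% of genes were. Foxf1 was at 247 UPM [213, 285] in 36 Ctrl cells and 102 UPM in 113 cKO cells, a ratio of -1.27 [-1.56, -0.98]. Foxl1 was at 30.4 and 11.6 UPM, or -1.39 [-2.28, -0.50], and Foxp1 at 287 and 125 UPM, or -1.20 [-1.46, -0.93]. Foxf1 was found in 28 of 36 thinned Ctrl cells (77.8%) and 50 of 113 cKO cells (44.2%). The gate was met by other markers in cKO: Hoxb1 was in 11.1% of Ctrl and 66.4% of cKO cells, Tbx5 in 52.8% and 32.7%, and the summed level of the 6 gate markers was 543 and 405 UPM. With 1 more marker asked for (49 and 86 cells), Foxf1 was at -0.57 [-0.83, -0.31], Foxl1 at -0.77 [-1.58, 0.04] and Foxp1 at -0.49 [-0.76, -0.22], so no member stayed past 2-fold lower. The stricter gate held more Ctrl cells because some cells of several mesoderm gates, of CM and of endothelium then met this gate alone. The part of this makeup in the ratios was not tested.

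In the Tcf15/Meox1 gate and in mesenchyme 5 of 7 and 5 of 8 members lay below the median gene. These were Foxf1, Foxf2, Foxc2, Foxl1 and Foxp1. Foxp1 had ratios of -0.46 and -0.42 in the 2 gates, and in mesenchyme Foxf2 was at -0.50 and Foxl1 at -0.47. In the Tcf15/Meox1 gate 2 of 7 members were past 2-fold, both lower, against 5.42% of genes. Foxf1 was at 5.78 and 1.97 UPM there, or -1.55 [-2.64, -0.48], on 18 and 15 UMIs, and Foxf2 at 17.3 and 7.37 UPM, or -1.23 [-1.80, -0.67]. Of the 15 Foxf1 UMIs 1 cKO cell held 5. Foxc2 was at 146 UPM [133, 160] in Ctrl and 75.3 in cKO, a ratio of -0.95 [-1.13, -0.77] just inside the line. Tcf15 was in 91.4% of the Ctrl and 77.0% of the cKO cells of this gate, and Meox2 in 9.14% and 28.8%. The part of this makeup in the ratios was not tested. With 1 more marker asked for, just 5 Ctrl and 62 cKO cells remained. In mesenchyme Foxc2 was at 87.2 and 58.9 UPM, or -0.57 [-0.64, -0.49], and Foxf1 at 4.24 and 2.19 UPM, or -0.95 [-1.34, -0.57]. Of 8 members there, Foxl2 was the one past 2-fold, against 8.42% of genes.

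BrM-gated cells held the widest set of genes that were higher in cKO. Of 7 members 4 were past 2-fold and all higher, where 2.8% of genes were higher. Of the 4, 1 was Foxl2, whose call is not independent of its selection, and the others were Foxc1, Foxd1 and Foxf1. Foxc1 was at 12.5 UPM [9.89, 15.5] in Ctrl (81 UMIs, 304 cells) and 29.6 in cKO (147 UMIs, 247 cells), a ratio of 1.25 [0.85, 1.66]. Foxd1 was at 4.92 and 13.7 UPM, or 1.48 [0.85, 2.13]. Foxf1 had 4 UMIs in Ctrl and 20 in cKO, or 2.71 [1.14, 4.72], with 10 of the 20 in 1 cell. Foxc2 had a ratio of 0.13 [-0.44, 0.69], Foxf2 of -0.63 [-1.30, 0.01] and Foxp1 of -0.62 [-0.81, -0.43].

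Markers of other groups also moved in BrM-gated cells. The 8 mesenchyme markers summed to 347 UPM in Ctrl and 413 in cKO with 3 of 8 past 2-fold higher, and the 6 Tcf15/Meox1-gate markers to 41.2 and 87.5 UPM. Among the gate's own markers Lhx2 was in 73.0% and 30.8% of the cells. In the stricter gate (177 Ctrl and 125 cKO cells) Foxc1 stayed past 2-fold at 1.01 [0.45, 1.58], while Foxd1 was at 0.68 [-0.38, 1.74] and Foxf1 rested on 7 UMIs. In Ctrl at E8.5 the BrM-gated levels of Foxc1 and Foxd1 were 37.8 and 26.2 UPM, above either E9.5 library but on just 48 cells. The E8.5 interval of Foxc1, given with the stages above, held its cKO E9.5 level. Without 1 cell the E8.5 level of Foxd1 was 17.2 UPM.

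Elsewhere the members passed the line mainly through Foxd1. It was past 2-fold higher in cells of several mesoderm gates (1.20 [0.56, 1.87], one of 2 members past the line among 8, with Foxl2, against 9.08% of genes), in endothelium (1.16 [0.35, 1.94], 1 of 4, 9.16%) and in CM (1.04 [0.05, 2.07], one of 2 past the line among 7, 9.57%). With 1 more marker asked for, the CM ratio was 0.44 [-1.25, 2.10] and no longer past the line, and cells of several mesoderm gates kept just 2 Ctrl and 4 cKO UMIs of Foxd1. In other epithelial cells its ratio was 1.45 [0.67, 2.22], and Foxd1, Foxc2 and Foxl2 were the 3 of 6 members past 2-fold (10.6% of genes). These are groups where Foxd1 was scarce, at 5.54 to 7.90 UPM in Ctrl, and single cells held 8 of its 22 UMIs in cKO endothelium and 7 of 22 in cKO CM. The mesenchyme gate, which held most Foxd1 UMIs of cKO, took a larger share of the gated UMIs there, as given above, and the part of free RNA from it was not tested. Foxc2 was higher in otic or surface epithelium as well, by 1.33 [0.27, 2.35] on 21 and 15 UMIs, the 1 member of 4 past 2-fold (11.8% of genes).

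Heart groups gave values near the line for Foxf1 and Foxl1. In CM Foxf1 was at 41.0 UPM [33.9, 49.2] in 165 Ctrl cells and 23.8 in 101 cKO cells, a ratio of -0.78 [-1.31, -0.27], but with 1 more marker asked for it was 0.40 [-0.38, 1.17], so its direction depends on the gate. The Foxl1 ratio there was -1.002 [-2.48, 0.29] on 21 and 7 UMIs and -0.37 [-2.99, 1.86] in the stricter gate. In aSHF 0 of 5 members were past 2-fold, against 9.18% of genes, and Foxp1 had the ratio farthest from 0, -0.75 [-1.16, -0.34], which was 0.09 [-0.44, 0.59] in the stricter gate.

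Foxp1 was lower in cKO in all 12 groups compared at E9.5, from -0.42 in mesenchyme and CM to -1.37 in MLP, and below the group's median gene in each. With 1 more marker per gate its direction turned in 2 of them, aSHF as above and cells of several mesoderm gates, where the ratio went from -0.48 to 1.26 [0.59, 1.91] on 8 cKO and 41 Ctrl cells. In endothelium, where its Ctrl level was least, it was at 48.5 and 33.9 UPM, or -0.52 [-0.93, -0.12]. In endoderm-gated cells it was at 82.1 and 54.0 UPM, or -0.61 [-0.98, -0.25]. At E8.5 the ratio over all cells was 0.17 and in MLP 0.55 [0.14, 0.96].

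Foxl2 in the cKO E9.5 library was unevenly spread over the groups. BrM-gated cells were highest, with 228 UMIs (46.0 UPM [40.2, 52.3]) in 247 cells, followed by endoderm-gated cells with 41 UMIs (29.5 UPM) and other epithelial cells with 21 UMIs (15.7 UPM). Mesenchyme held the most UMIs, 313, at 6.59 UPM, while MLP (1.07 UPM) and pSHF (0.967 UPM) held 4 and 2 UMIs. BrM held 29.1% of the gated Foxl2 UMIs and 5.01% of all UMIs. The level in BrM was thus far above that of mesenchyme in the same library. MLP and pSHF, where Foxf1 was high in Ctrl, had next to none. Foxf1 was also high in cells of several mesoderm gates, and these held 27 Foxl2 UMIs in 173 cKO cells. Without the cell that held the most, their Foxl2 level was 7.19 UPM.

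The corresponding Ctrl E9.5 groups held between 0 and 2 Foxl2 UMIs. Mesenchyme had 0 in 1748 cells, so the cKO level was at least 66.8-fold higher against a floor of 3 UMIs in the group, and endoderm-gated cells had 0 in 296, so it was at least 56.7-fold higher. BrM had 2 UMIs (0.307 UPM), a ratio of 7.22 [5.35, 10.3]. In endoderm-gated cells Foxl2 was the 1 of 6 members past 2-fold, against 11.2% of genes, and this call is not independent of its selection. With 1 more marker asked for, BrM held 139 Foxl2 UMIs in cKO and 0 in Ctrl, and endoderm 39 and 0.

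Counted per cell after thinning, Foxl2 was found in 337 of 5548 cKO cells (6.07% [5.46, 6.74]) and 1 of 4898 Ctrl cells (0.0204%) at E9.5. In BrM the share was 81 of 247 cells (32.8% [27.0, 39.0], or 51.0% without thinning), in endoderm-gated cells 18 of 65 (27.7% [17.3, 40.2]), in mesenchyme 146 of 2717 (5.37% [4.56, 6.29]) and in MLP 1 of 215 (0.465%). No cell held more than 6 Foxl2 UMIs, so no single cell carries the value.

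Within BrM-gated cells of cKO E9.5, Foxl2-positive and Foxl2-negative cells were alike in Tbx1 (75.3% and 76.5% with a UMI) and Msc (60.5% and 60.8%). Myod1, the myogenic regulator, was in 11.1% [5.21, 20.05] of positive and 2.41% [0.66, 6.05] of negative cells. Tcf21 was in 71.6% and 83.1%, and Foxf2 in 1.23% and 7.83%. In endoderm-gated cells Nkx2-3 was in 16 of 18 Foxl2-positive cells (88.9%) and 19 of 47 negative cells (40.4%), and Pax1 in 61.1% and 76.6%. All these cells belong to 1 library.

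**Figure D5:**
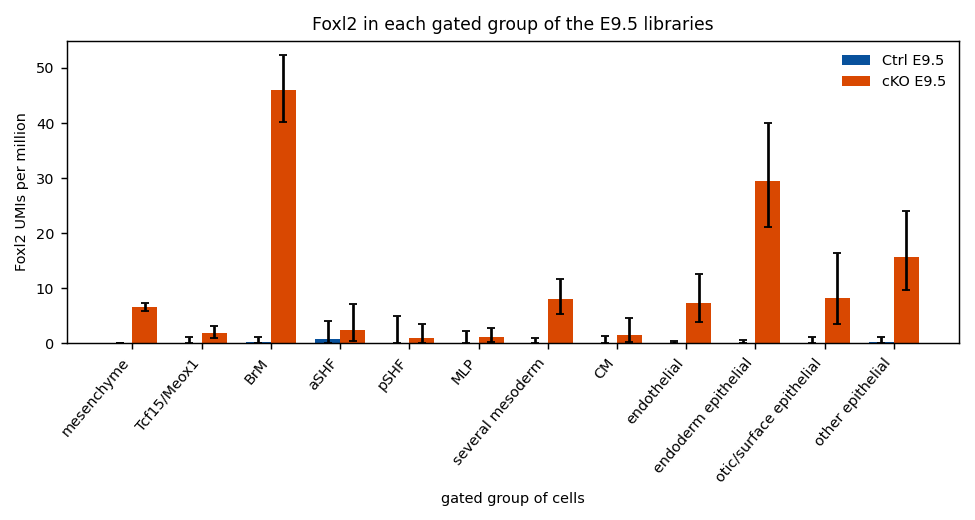
Foxl2 level in 12 gated groups of the Ctrl and cKO libraries at E9.5, in UPM on a linear axis from 0, with 95% Poisson intervals. The cKO bars are highest in BrM (46.0) and endoderm-gated cells (29.5) and lowest in pSHF (0.967), while the Ctrl bars lie at or below 0.742.

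Of 35 genes at least 16-fold higher in cKO E9.5 than in Ctrl with at least 200 UMIs, Foxl2 was the second by the ratio of its highest to its lowest group over 14 groups (23.9 with 1 UPM added, median 3.34), behind Cdh6 at 75.7. Foxl2 is among the 35 through the same difference on which it was selected, and its lowest group, pSHF, held 2 UMIs. Foxl2 was not matched by its neighbours: Faim, 28247 bp away, had a log2 ratio of -0.12 and Pik3cb, 80276 bp away, one of -0.55. Prr23a3, 89027 bp away, was lower at -1.52 [-2.62, -0.52] on 31 and 12 UMIs. The antisense gene Foxl2os ends 297 bp before Foxl2 on the other strand (chr9:98949155-98955310) and is not among the shared genes. The cKO E9.5 library was counted against a different gene table, and whether gene models differ at this locus is not given in the sources used here.

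The rest of the family differed mainly through epithelial genes. Of the 35 other forkhead genes 22 passed the minimum at E9.5, with 6 past 2-fold lower and 0 higher in cKO, where 9.8% of all genes were lower. Foxe1, a thyroid and pharyngeal endoderm gene, had 601 UMIs in Ctrl and 49 in cKO, a ratio of -3.77 [-4.22, -3.35], and within endoderm-gated cells it was -1.501. Foxa1, the paralogue of Foxa2, was at -1.67 [-2.08, -1.27] over all cells and 0.19 within endoderm-gated cells. The lower genes also included Foxi2 (-1.32), Foxb1 (-1.43) and Foxd3 (-1.998 on 18 and 5 UMIs), genes of placodes, neural tissue and neural crest. In Ctrl E9.5 Foxi2 was at 188 UPM in the otic or surface gate, and it ranked 10 among 9515 genes by fold in other epithelial cells. The former gate held 3.51% of gated cells in Ctrl and 0.937% in cKO, and the latter 4.798% and 1.21%. The part of this makeup in the Foxi2 ratio over all cells was not tested. Foxi2 was scarce in endoderm-gated cells, at 6.76 UPM in Ctrl. It went the other way there, with 39 UMIs in Ctrl and 45 in cKO, a ratio of 2.26 [1.61, 2.92]. At E8.5, 18 passed, and Foxr1 (3.97 [2.69, 5.63]) was among those past 2-fold higher in cKO. Between stages in Ctrl, 5 of 20 were higher at E9.5, against 17.9% of all genes, among them Foxa1, Foxe1, Foxi2 and Foxq1. The Foxq1 ratio of 1.07 [-0.16, 2.59], on 6 and 47 UMIs, had an interval that held 0. Foxb1 and Foxd3 were past 2-fold lower at E9.5, and the share of all genes lower between stages is not given here.

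The Hedgehog pathway, to which Foxf1, Foxf2 and Foxl1 are known to answer, was read from a list of 14 genes. Of the 12 that passed the minimum at E9.5, Shh, the endodermal ligand, was past 2-fold lower in cKO (149 and 19 UMIs, -3.12 [-3.89, -2.43]) and 0 were higher, against 13.4% of all genes past 2-fold. The endoderm-gated share of cells was also lower in cKO, as given for Foxa2, and within endoderm-gated cells the Shh ratio was -0.80 [-1.72, 0.02] on 101 and 14 UMIs. The median over the 12 was -0.32, near the -0.26 of all genes. In the pSHF gate Foxf1 and Foxl1 were past 2-fold lower in cKO, but not in the stricter gate (-0.57 and -0.77). Of the 7 list genes that passed the minimum in the main gate, the target Gli1 was past 2-fold lower at -1.65 [-2.59, -0.72]. In this gate 6.97% of all genes were past 2-fold lower. The co-receptor Gas1 was past 2-fold higher at 1.68 [1.09, 2.32], and the share of all genes higher in this gate is not given here. Ptch1 was just inside the line at -0.96 [-1.35, -0.57]. The markers that met this gate differed with genotype, as given above, and their part in these ratios was not tested. At E8.5 none of 11 was past 2-fold. Between stages in Ctrl 3 of 12 were higher at E9.5, against 17.9% of all genes: Shh (2.73), the target Gli1 (1.17 [0.86, 1.498]) and Gas1 (1.37 [1.27, 1.48]).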

How the data were processed

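Single cells of 4 libraries were read from the count matrices the authors deposited, in which each value is a whole-number UMI count per gene and cell; the submitters' processing notes name Cell Ranger 3.1.0 and the mm10/GRCm38 build. The cells deposited had 500 to 115674 UMIs, and none was removed for levels. The members and lists were chosen with earlier results of these data known. Genes were matched by Ensembl ID (27514 shared, 99.4 to 99.9% of UMIs). Gates used fixed marker lists on cells thinned to 10000 UMIs (1299, 1006, 4898 and 5548 cells of Ctrl E8.5, cKO E8.5, Ctrl E9.5 and cKO E9.5), with thresholds set after the data were seen, and 2 libraries were compared in groups of at least 20 cells in each. UMIs were summed per group. With 1 library per group no replicate test exists, and edgeR served only for TMM factors. Named were all 9 members, other forkhead and Hedgehog genes past 2-fold, 3 alike genes per member on log2(UPM + 10) among genes of at least 200 UMIs, and genes within 100 kb. Scrublet called 24, 6, 4 and 1 cells (1.67 to 0.0160%), so it did not work at E9.5; no doublets were removed, and leaving out the 5% of cells with the highest scores was added after seeing the data. Scripts were tested on simulated data. Python 3.11.15, numpy 2.4.6, pandas 2.3.3, scipy 1.17.1, scanpy 1.11.5, R 4.3.3 and edgeR 4.0.16 were used. The NCBIM37 genome is another build and was not used. Values of some genes counted in the lists are not reported here.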

Additional observations from a re-analysis of the deposited data

Results flagged for a closer look

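Several members differed in opposite directions between genotypes at the 2 stages, each with a counting interval that left 0 out and on opposite sides of the median gene; the difference between stages was not tested, since each genotype and stage is 1 library. Over all cells the log2 ratio of cKO over Ctrl was 0.85 at E8.5 and -0.59 at E9.5 for Foxf1, and 0.17 and -0.43 for Foxp1. In CM-gated cells Foxf1 was at 1.16 and -0.78, and the E9.5 value turned to 0.40 in the stricter gate. In MLP-gated cells Foxp1 was at 0.55 and -1.37. Foxc2 was at 0.41 and -0.57 in mesenchyme and at 0.58 and -0.95 in the Tcf15/Meox1 gate. In cells of no gate Foxc2 was at 0.36 and -0.56, and Foxp1 at 0.22 and -0.53.

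Fendrr, a long noncoding RNA gene transcribed divergently beside Foxf1, is outside the shared genes. It had 4 UMIs in 3 of 1434 Ctrl E8.5 cells, 16 UMIs in 13 of 1090 cKO E8.5 cells and 83 UMIs in 65 of 5453 Ctrl E9.5 cells, and it is not listed among the genes counted for cKO at E9.5.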

How the results depend on the processing

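The main counts kept within 1.5 times under most alternatives. Weighting the cKO groups by the Ctrl makeup left 1 member past 2-fold at E9.5 in place of 2, since Foxa2 turned from -1.71 to 0.64, and 3 other forkhead genes in place of 6; the same weighting gave 5 members in place of 3 between stages. Thinning every cell gave 1 member at E8.5 in place of 0, Foxf2 at 1.03. The cause was not tested beyond that. Of the 24 ratios over all cells, 24 stayed within their intervals with totals over each library's own gene table, 24 without Scrublet doublets, 24 without the top 5% of scores, 23 without cells over 2 times the median UMI count, 16 when thinned, 11 under TMM scaling and 10 under the weighting. Among groups at E9.5, 50 of 72 ratios stayed within their intervals in the stricter gates and 67 of 76 with gates from unthinned cells. Depth limits Foxa2 and Foxl2 at E8.5, with at most 5 UMIs in a library, and the BrM, pSHF and aSHF gates, with 48, 6 and 39 Ctrl cells at E8.5. No paired analysis was possible because each group is 1 library and the labels give no replicate numbers.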
